A study of Gallus gallus with 6 samples.

Results

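The 6 genes described here, ND1, ND2, ND3, ND4L, ND4 and ND5, encode subunits of respiratory complex I and lie on the mitochondrial chromosome of the chicken. They were taken by their start positions on chrM and are 6 of the 24356 features in the deposited count table. That rule uses no measured value, but the genes were chosen with earlier results of these data known. The RNA came from dorsal neural folds of Leghorn White embryos at Hamburger-Hamilton stage 9 and was poly(A) selected before sequencing. In each of 3 embryos one side had received a TGFB1 morpholino and the opposite side the GTBlue-Control morpholino, at a concentration of 1 mM, and each fold gave its own library. This made 3 libraries of the TGFB1 morpholino side and 3 of the control morpholino side, in 3 pairs, which are called embryos 1, 2 and 3 after the number in the labels. The genotype labels read TGFB1 knockdown for the TGFB1 morpholino side and WT for the control side. Morpholinos are antisense molecules that hinder the translation or splicing of a transcript, so its level need not change. TGFB1 is a secreted signalling protein of the TGF-β family, and the comparison asks which transcripts differ when it is depleted. The labels call the cells neural crest, but a fold is bulk tissue, in which more cells of a type and more RNA per cell cannot be told apart. Neither that label nor the depletion of TGFB1 was checked against marker genes, because 0 of the 24356 Ensembl IDs matched the symbol table used here.

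Complex I, or NADH dehydrogenase, is the entry point of the mitochondrial respiratory chain. It passes electrons from NADH to ubiquinone and pumps protons across the inner membrane. Most of its subunits are encoded in the nucleus, while a core of hydrophobic ND subunits is made inside the mitochondrion from its own DNA. That DNA is transcribed as long polycistronic RNA from each strand and cut at the tRNAs that stand between the genes. Most of the resulting messenger RNAs receive short poly(A) tails, which is why poly(A) selection can retain them.

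ND2, ND4 and ND5 are the antiporter-like subunits of the membrane arm, in which protons are thought to be moved. ND1 helps to form the ubiquinone site, where the membrane arm meets the peripheral arm, and ND3 and ND4L are small subunits close to it. All 6 genes are single features on the plus strand of chrM in galGal6. ND1 was 975 bases long and ended at position 5024, and ND2 was 1039 bases long and ended at 6279. ND3 was 351 bases long and ended at 11126, ND4L 297 bases ending at 11492, ND4 1378 bases ending at 12863 and ND5 1818 bases ending at 14888. The 37 chrM features were paired by order with the RefSeq mitochondrial genes of the assembly GRCg7b. All but 1 of the pairs agreed in length within 3 bases. The lengths of 5 of the 6 genes are identical there, and ND3 has 352 bases, 1 more than in the deposited table. Bird ND3 genes often carry an extra base that is not translated. The lengths of ND2 and ND4 leave a remainder of 1 base when divided by 3, and in vertebrate mitochondria a poly(A) tail can complete such an unfinished stop codon.

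ND4L and ND4 overlap by 7 bases, so a read in the overlap matches both, and how it was counted is not known here. No other member overlaps a feature. The 3 tRNA-length features between ND4 and ND5 had 1 read in all 6 libraries together, but not all gaps were that empty. Of the 21 tRNA-length features on chrM, those directly after ND1 and ND2 had the most reads. They had 16 to 124 and 25 to 179 reads per library. ND4 had 253499 reads and ND5 317030 reads over the same libraries. Counts of single members ran from 1310 to 78315 reads per library, so that counting error was at most 2.76% of a value. In each library at least 1 member ranked among the 6 most counted of all features. Nuclear genomes carry copies of mitochondrial DNA, and how reads matching several places were counted is not given in the sources used here.

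Levels are given as CPM, counts scaled to library totals that were adjusted by TMM, and genes are set against each other only per kilobase of length. Per length, ND1 was highest with 5838 ± 1293 CPM per kilobase (SD, n = 6 libraries from 3 embryos). ND4 followed with 3389 ± 1055 and ND5 with 3249 ± 895 CPM per kilobase. ND2 stood at 2289 ± 1181, ND4L at 1353 ± 439 and ND3 at 1100 ± 251 CPM per kilobase. Over the means of the 3 embryos the SD was 1044 for ND1, 945 for ND4 and 684 for ND5. It was 1232 for ND2, 422 for ND4L and 35 for ND3. The part of poly(A) selection in these levels was not tested. The highest and the lowest member of a library differed 4.97-fold to 7.55-fold. ND1 exceeded ND4 in 6 of 6 libraries, by 0.82 ± 0.21 on the log2 scale. ND4 and ND5 did not differ beyond their spread, with a log2 ratio of 0.05 ± 0.14 and ND4 above in 4 of 6. ND5 lay above ND2 in 6 of 6 libraries, but by as little as 0.08 and as much as 1.56. ND2 lay above ND4L and ND4L above ND3 in 5 of 6 libraries each, by 0.60 ± 0.50 and 0.26 ± 0.52 on the log2 scale. The 4 libraries of embryos 1 and 2 gave the same order of all 6 genes, and both exceptions came from embryo 3.

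**Figure D1:**
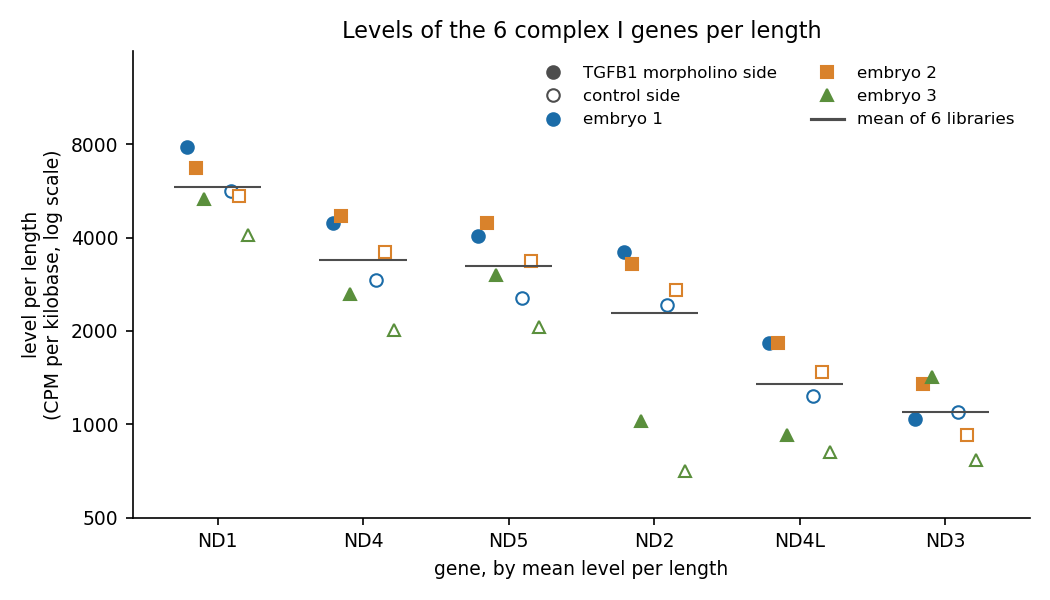
Level per length (CPM per kilobase, log scale) of each gene in 6 libraries, with filled symbols for the TGFB1 morpholino side, open symbols for the control side and a line at the mean. ND1 is highest in every library, and the embryo 3 libraries (triangles) lie far below the others for ND2 but not for ND3.

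The 6 genes together took 2.60%, 2.56% and 1.57% of all counts on the TGFB1 morpholino side of embryos 1, 2 and 3, against 1.75%, 2.0% and 1.18% on the control side. The share was higher on the TGFB1 side of each embryo, 1.49-fold, 1.28-fold and 1.33-fold, while the ranges of the groups overlapped. Per 100 counts outside chrM, the genes had 2.95, 2.76 and 1.65 counts on the TGFB1 side and 1.83, 2.12 and 1.23 counts on the control side. Taken that way, the ratios were 1.61, 1.3 and 1.34. Library totals ran from 5350165 to 12256492 counts.

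Among the antiporter-like subunits, ND5 had 7339, 8085 and 5495 CPM on the TGFB1 side of embryos 1, 2 and 3, against 4649, 6120 and 3748 CPM on the control side. Its difference was the largest of the 6, with a log2 fold change of 0.54 (SE 0.20, edgeR quasi-likelihood test, adjusted p = 0.0859). The 6 log2 fold changes, 0.35 to 0.54, lay close together for standard errors of 0.14 to 0.20. Without embryo 1 the largest was that of ND3, 0.72 against 0.48 for ND5. ND4 had 6150, 6480 and 3634 CPM on the TGFB1 side and 4035, 4935 and 2782 CPM on the control side (log2 fold change 0.46, SE 0.19, edgeR adjusted p = 0.122). For both genes the TGFB1 side was higher in every embryo, and embryo 3 was lowest on both sides.

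ND2 had 3723, 3418 and 1064 CPM on the TGFB1 side, against 2511, 2820 and 736 CPM on the control side. The TGFB1 side was again higher in all 3 embryos (log2 fold change 0.46, SE 0.18, edgeR adjusted p = 0.0953), but both sides of embryo 3 lay below every library of the other embryos. Embryo 3 lay below all other libraries in ND1, ND4 and ND4L as well. For ND2 the range of the embryo means was 1.81 on the log2 scale, against a mean side difference of 0.46. That range also exceeded the side difference for ND1 (0.52 against 0.39), ND4 (0.83 against 0.46), ND4L (0.92 against 0.35) and ND5 (0.63 against 0.54). For ND3 it did not (0.095 against 0.45). A range over 3 embryos cannot be negative and grows with noise, unlike a mean of signed differences. These comparisons describe sizes and do not test embryo against side.

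ND1, at the ubiquinone site, had 7639, 6556 and 5186 CPM on the TGFB1 side and 5507, 5294 and 3971 CPM on the control side. It was higher on the TGFB1 side of each embryo, 1.39-fold, 1.24-fold and 1.31-fold (log2 fold change 0.39, SE 0.20, edgeR adjusted p = 0.200). ND4L had 544, 544 and 274 CPM on the TGFB1 side and 366, 439 and 243 CPM on the control side. Its ratio was 1.49 in embryo 1 and 1.13 in embryo 3, and it had the smallest log2 fold change of the 6, at 0.35 (SE 0.14, edgeR adjusted p = 0.103). Without embryo 3 the smallest was that of ND3, 0.22 against 0.43 for ND4L.

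ND3 had 364, 475 and 499 CPM on the TGFB1 side and 385, 323 and 270 CPM on the control side. The ratio of the TGFB1 to the control side was 0.94 in embryo 1, 1.47 in embryo 2 and 1.85 in embryo 3. With a log2 fold change of 0.45 (SE 0.17, edgeR adjusted p = 0.0949), its mean was close to those of the other members while its spread over embryos was the widest, an SD of 0.49 against 0.08 for ND1. Without embryo 1 its log2 fold change was 0.72, and without embryo 3 it was 0.22.

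**Figure D2:**
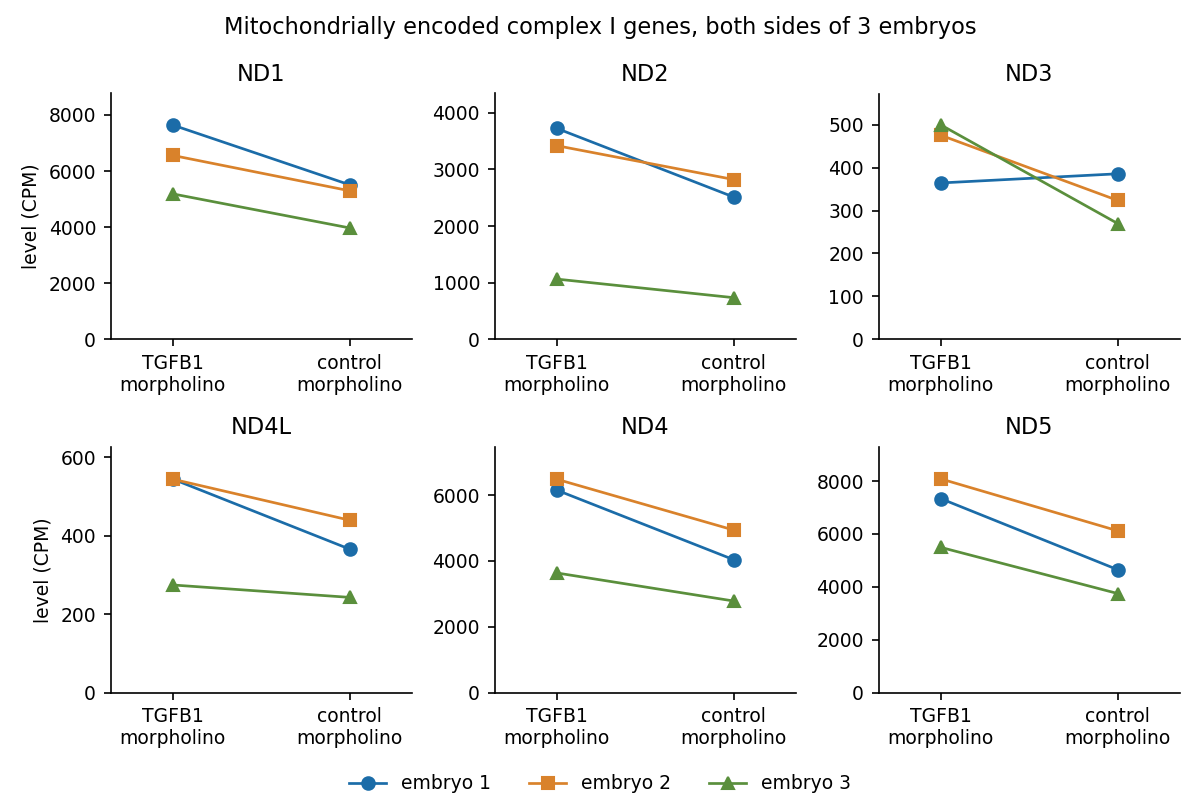
Level (CPM) of each gene on the TGFB1 morpholino side (left) and the control side (right), with a line for each of the 3 embryos. All lines are higher at the left except that of ND3 in embryo 1, and on this TMM scale no gene separates the sides across embryos.

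None of the 6 genes passed a false discovery rate of 0.05 in the edgeR test with the embryo as a block, while 7.15% of the 12736 genes tested were called higher and 8.81% lower. At an unadjusted p under 0.05 the test called 5 of the 6 higher (15.0% of all genes tested), and at a false discovery rate of 0.1 it called ND2, ND3 and ND5 (11.2% of all). All but ND3, 5 of the 6, were higher in all 3 embryos, as were 26.2% of all genes tested. For 0 of the 6 did every TGFB1 library exceed every control library, which held for 14.3% of all genes, with levels scaled by TMM. The median log2 fold change of the 6 was 0.46, and that of all genes tested was 0.0033. The 6 genes are not independent, so these counts are not 6 separate results and measure no excess over all genes. Between members other than ND3, log2 CPM correlated over the 6 libraries with r of 0.80 (ND2 and ND5) to 0.98 (ND4L and ND4). With ND3, r was 0.27 to 0.56. The count of calls moved with the test, the filter on low counts and the embryos used. On the genes that edgeR's filter kept, DESeq2 called 4 of the 6, which were ND1, ND2, ND4 and ND5 (4.71% of 12242 genes higher). On the same genes limma-voom called 2 (7.73% of all). DESeq2 on unfiltered genes also called 4 (3.99% of 12883 genes). Both DESeq2 shares are of the genes that received an adjusted p. edgeR with no filter on low counts called 2, ND3 and ND5 (6.07%). Their log2 fold changes there were 0.43 and 0.52, below the 0.45 and 0.54 with the filter. The standard errors were smaller too, 0.16 and 0.19 against 0.17 and 0.20. Without embryo 1 edgeR called 4 of the 6 (7.42% of all genes higher). Without embryo 2 it called 0 (3.53%), and 0 also at an unadjusted p under 0.05 (10.0%). A fit with no replicate block called 0 (2.12%), and 1 at an unadjusted p under 0.05 (10.6%).

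With library totals and TMM factors taken from genes outside chrM, the log2 fold changes ran from 0.35 to 0.53 and edgeR again called 0 of the 6 (6.81% of all genes higher), with 5 at an unadjusted p under 0.05 (14.6%). Scaled to the counts outside chrM alone, without TMM, all 6 genes were higher on the TGFB1 side in all 3 embryos. So were 28.8% of all genes tested, while 22.9% were lower in all 3 embryos, against 26.2% and 25.9% with TMM. Without TMM 1 of the 6, ND3, had every TGFB1 library above every control library. This held for 15.9% of all genes, and the reverse for 12.6%. ND3 had 418 to 514 CPM of the counts outside chrM on the TGFB1 side and 282 to 405 on the control side. The ratio of ND3 in embryo 1 was then 1.03, against 0.94 with TMM-scaled totals, so the direction of that value, and whether the sides overlap in ND3, depend on the scaling.

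The TGFB1 library of embryo 1 stands apart from the rest in the 2 chrM features of rRNA length, which took 4.56% of its counts and 0.148% to 0.255% in the other 5 libraries. In this embryo ND3 had a ratio of 0.94 between the TGFB1 and the control side, and so did ND6. The other 11 messenger-length genes had ratios of 1.39 to 1.91 there. ND6, the remaining ND subunit, is the single messenger-length gene on the minus strand of chrM. It had 419, 646 and 519 CPM on the TGFB1 side and 446, 529 and 317 CPM on the control side (log2 fold change 0.30, SE 0.16, edgeR adjusted p = 0.229). Scaled to the counts outside chrM, its ratio in embryo 1 was 1.03, as for ND3. The part of the rRNA-length reads in these ratios was not tested. Without the rRNA-length features edgeR called 0 of the 6 members (7.27% of all genes higher) and 6 at an unadjusted p under 0.05 (15.1%).

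**Figure D3:**
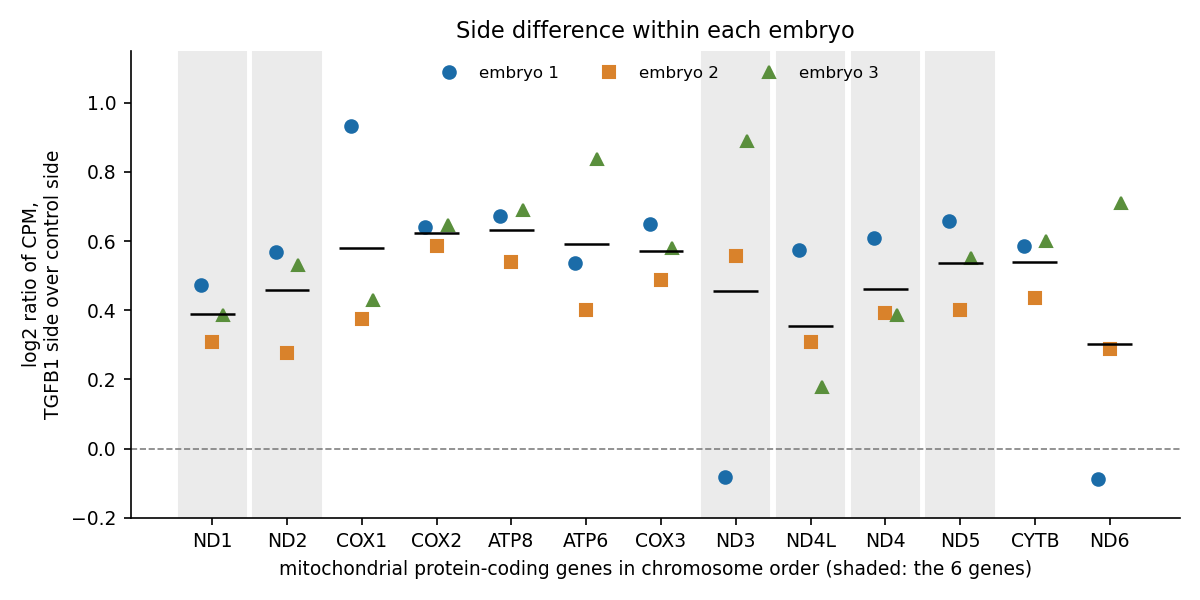
Log2 ratio of CPM, TGFB1 morpholino side over control side, in each embryo for the 13 mitochondrial protein-coding genes in chromosome order, with a line at the mean of 3 embryos. Points lie above 0 except those of ND3 and ND6 in embryo 1, and ND3 and ND6 show the widest spread between embryos.

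The members were also set against the other mitochondrial messengers within each library, where the library total cancels out. The 6 genes held 35.7%, 36.5% and 33.1% of the reads of the 13 messenger-length genes on the TGFB1 side of embryos 1, 2 and 3, and 38.7%, 37.7% and 34.9% on the control side. That share was lower on the TGFB1 side of every embryo, by 3.03, 1.18 and 1.73 percentage points. It also falls when a gene outside the 6 takes more of the reads. COX1 alone held 31.8% on the TGFB1 side of embryo 1 against 26.7% on its control side. In embryos 2 and 3 COX1 held 26.0% and 27.1% on the TGFB1 side against 26.6% and 29.1%. An exact sign-flip test over 3 pairs cannot give a two-sided p below 0.25, so no test was made. Relative to the median of the 13 genes in the same embryo, the side difference of ND1 was -0.13 ± 0.05, that of ND2 -0.06 ± 0.05 and that of ND4L -0.17 ± 0.21 on the log2 scale (SD, n = 3 embryos), and these 3 genes were below 0 in each embryo. ND3 had -0.07 ± 0.53, ND4 -0.06 ± 0.12 and ND5 0.02 ± 0.05, with embryos on both sides of 0. Among the other genes, COX2 and ATP8 were above 0 in each embryo, and COX3 and CYTB at or above 0. COX1, ATP6 and ND6 had embryos on both sides. The 6 genes are themselves part of the 13, so this median is not an outside reference. Of the 7 other messenger-length genes, COX2 and ATP8 passed the edgeR test (log2 fold changes 0.62 and 0.63, adjusted p = 0.0434 and 0.00922). COX2 no longer passed with DESeq2's size factors (edgeR adjusted p = 0.0537), with at least 1 CPM required in all 6 libraries (0.0520), with no replicate block (0.124), without embryo 2 (0.381) or without embryo 3 (0.193). ATP8 no longer passed with no replicate block (edgeR adjusted p = 0.0611) or without embryo 2 (0.0941). A further 2 chrM features, neither of messenger length, also passed the edgeR test (adjusted p = 0.0332 and 0.0427). Other settings called more of the 7. COX1, COX2, ATP8, ATP6, COX3 and CYTB passed with DESeq2 on unfiltered genes (3.99% of genes given an adjusted p were higher). They also passed with limma-voom (adjusted p at most 0.0383, 7.73% of all genes higher) and with edgeR unfiltered (at most 0.0368, 6.07%). ND6 did not pass in these settings. Without embryo 1 edgeR called all 7 (adjusted p at most 0.0270, 7.42% of all genes higher).

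ND2 set embryo 3 apart. Averaged over both sides, its level in embryo 3 was 0.287 of that in embryos 1 and 2, and 0.274 when scaled to the counts outside chrM. The other 12 mitochondrial messengers had 0.553 to 0.958 of their level in the other embryos, with ND4L lowest at 0.553, ND4 at 0.599 and ND3 highest at 0.958. On the log2 scale, ND2 was lower by 1.80 in embryo 3. Of the 12736 genes tested, 22 including ND2 lay that low or lower (0.173%), and the median of all was -0.0046. Per length, ND2 had 0.457 and 0.489 of the level of ND1 on the TGFB1 sides of embryos 1 and 2 and 0.193 on that of embryo 3. On the control sides the ratio was 0.428, 0.5 and 0.174. The 2 libraries of embryo 3 thus shared the low ratio, and the sides of 1 embryo differed in it by at most 0.15 on the log2 scale. With 1 such embryo the difference has no replicate, and it was noticed in these data, so no test was made.

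Among the 15 ratios between 2 members, that of ND4L to ND4 was the steadiest over the 6 libraries, with an SD of 0.096 on the log2 scale. In human mitochondria these 2 overlapping genes are carried by a single messenger RNA. Whether that, or the reads in the overlap, bears on this ratio was not tested. ND4L had 0.411, 0.390 and 0.350 of the level of ND4 per length on the TGFB1 side, and 0.420, 0.413 and 0.405 on the control side. ND4 to ND5, which are parted by tRNAs, came next with an SD of 0.14. The 5 ratios with ND2 had SDs of 0.50 to 0.93 and the 5 with ND3 0.33 to 0.93, with that of ND2 to ND3 in both sets. ND3 had 0.232, 0.288 and 0.540 of the level of ND4 on the TGFB1 side and 0.375, 0.257 and 0.381 on the control side.

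**Figure D4:**
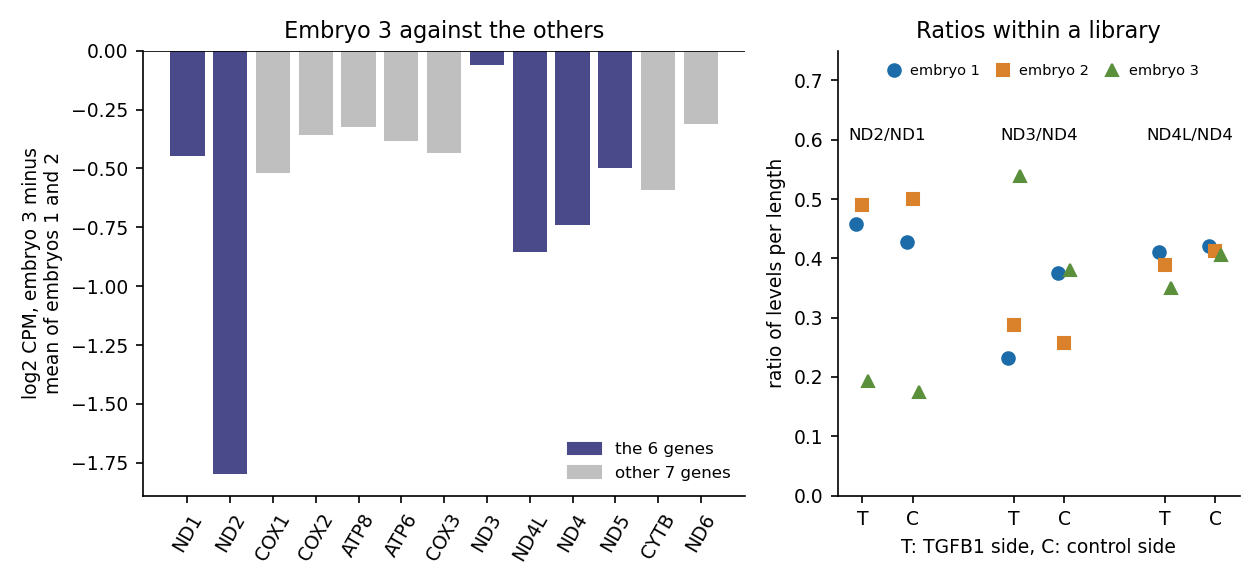
Left, log2 CPM of embryo 3 minus the mean of embryos 1 and 2, averaged over both sides, for the 13 mitochondrial genes in chromosome order, with the 6 genes dark. Right, ratios of levels per length in each library (T, TGFB1 side, C, control side): ND2/ND1 is low in both libraries of embryo 3, ND3/ND4 varies between libraries and ND4L/ND4 lies between 0.350 and 0.420.

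The genes whose pattern over the 6 libraries was most like the mean of the 6 members were sought among all genes tested, by the root mean square difference of centred log2 CPM. Each of the 6 members is part of that mean. Their own ranks and correlations are thus partly fixed in advance and cannot be set against those of other genes. ND4 was closest, with a difference of 0.064, and ND4L ranked 7, ND5 31 and ND1 53. ND3 and ND2 ranked 2316 and 6584. By Pearson correlation, which leaves the size of the differences out, ND2 ranked 69 (r = 0.951 over 6 libraries that share embryos) and ND3 2902 (r = 0.485). Outside chrM the closest were ENSGALG00000026359.3 on chromosome 3 from 22805740 to 22810788 (0.079) and ENSGALG00000000785.7 on chromosome 12 from 1838093 to 1840008 (0.095). The first had 13.6, 15.3 and 8.75 CPM on the TGFB1 side and 11.2, 10.9 and 6.86 CPM on the control side. CYTB, a subunit of complex III, was the nearest of the other 7 mitochondrial messengers, with rank 11. With 6 libraries and 12736 genes such likeness is a description of these libraries.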

How the data were processed

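The authors deposited raw read counts for each gene, made with cutadapt, HISAT2 and featureCounts on galGal6, per the submitters' processing notes. Versions, the annotation release, the strand setting and the handling of multiply mapped reads were not given in the sources used here. Libraries were poly(A) selected and strand-specific, per the labels' protocols. Gene lengths are those the authors deposited.

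Counts were analysed in R 4.3.3. Genes passing filterByExpr (12736) were scaled by TMM (factors 0.973 to 1.01) and tested with edgeR 4.0.16's quasi-likelihood F test, two-sided, with the embryo number as a block and Benjamini-Hochberg adjustment over all genes tested. Alternatives used DESeq2 1.42.0, limma 3.58.1, other scalings and filters, library totals without chrM or without rRNA-length features, and each embryo left out. Each standard error is the log2 fold change over the square root of F. The embryo is the block because, per the labels' protocols, the folds of a pair come from 1 embryo. Deviations from the group means correlated within pairs (0.492, 0.520 and 0.363 over genes). Libraries of different pairs were not compared in this way, so these values do not check the numbering. Libraries of 1 group differed by at least 12.4 times counting noise (chi-square per degree of freedom). Counting error covers reads, not molecules.

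The genes, lists and tests were chosen with earlier results of these data known. All 6 genes are named by rule, with the 2 features outside chrM nearest in pattern. Lists of nuclear complex I genes, mitochondrial RNA factors and cell markers were not analysed here, because no ID could be paired with a symbol. The fold in ND2 between embryos, the steadiness of ratios and the shares among mitochondrial messengers were examined after the data were seen.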

Additional observations from a re-analysis of the deposited data

How the results depend on the processing

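All 6 genes kept a positive log2 fold change in each of the 12 alternatives that gave one. The number of the 6 called at a false discovery rate of 0.05 by edgeR was 0 (7.15% of all genes tested were called higher). It was 4 with DESeq2 on unfiltered genes (3.99% of those given an adjusted p). It was also 4 with DESeq2 on the genes edgeR tested, a setting chosen after seeing the data (4.71% of those given an adjusted p). It was 2 with limma-voom (7.73%), 2 with no filter on low counts (6.07%) and 3 at a false discovery rate of 0.1 (11.2%). Leaving out each embryo in turn gave 0 to 4 of the 6. Over the whole table it gave 450 to 940 genes higher (3.53% to 7.42% of those tested) and 670 to 1313 lower. The 4 of 6 came without embryo 1, and the lowest counts over the whole table came without embryo 2. With no replicate block 0 of the 6 were called, with 270 genes higher (2.12% of those tested) and 427 lower. DESeq2 called 514 genes higher unfiltered and 576 filtered, and a false discovery rate of 0.1 gave 1421. Adjusted p-values over the alternatives ran from 0.0284 to 0.623 for ND1, 0.0103 to 0.662 for ND2, 2.35e-05 to 0.468 for ND3, 0.0904 to 0.465 for ND4L, 0.00747 to 0.524 for ND4 and 0.00113 to 0.438 for ND5. The lowest for ND3 came without embryo 1, where its log2 fold change was 0.72 against 0.22 without embryo 3. With 100 bases taken off each length, the order of the 6 genes was unchanged and their span was 2.29 on the log2 scale instead of 2.53, and without an embryo it lay between 2.48 and 2.58. The range of the mean side differences among the 6 members was 0.18 on the log2 scale with all embryos. It was 0.23 to 0.48 without one, with 0.48 without embryo 1 and 0.29 without embryo 3. The share of counts differed between the sides by 0.60 percentage points with all embryos, and by 0.47 to 0.71 without one. By Pearson correlation 0 of the other 7 mitochondrial messengers were among the 20 genes most like the members, against 1 by root mean square difference. The cause of these changes was not tested. Fits without an embryo rest on 2 pairs, so their counts of calls measure stability poorly. The same holds for their adjusted p-values, including the lowest for ND3. Depth limits these values little, as counting error was at most 2.76%.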
